A study of Mus musculus with 15 samples.

Results

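The genes described here encode 10 proteins that tankyrase binds or marks, out of 24134 genes listed in each count table. They were chosen by name from what is known of the enzyme: *Axin1*, *Rnf146*, *Sh3bp2*, *Terf1*, *Numa1*, *Amot*, *Amotl1*, *Amotl2*, *Lnpep* and *Psmf1*. Tankyrase 1 and tankyrase 2, encoded by *Tnks* and *Tnks2*, are poly(ADP-ribose) polymerases that recognise a short peptide motif in their partners through ankyrin repeats and attach chains of ADP-ribose to them (PARylation). The E3 ubiquitin ligase RNF146 reads these chains through its WWE domain and sends many of the modified partners to the proteasome, so tankyrase is best known for setting the amount of its substrate proteins. RNA sequencing does not see that step, and the values below are transcript levels only.

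Primary articular chondrocytes, the cartilage-forming cells of the joint surface, came from the femur and tibia of ICR mice in the first days after birth and were used at passage 0. In the drug set, cells received the solvent DMSO, 10 µM XAV939 or 10 µM IWR-1 for 108 h, with 3 libraries per group. XAV939 and IWR-1 are inhibitors of both tankyrases that occupy different parts of the catalytic pocket. In the siRNA set, cells were transfected with control siRNA (siCtrl) or with siRNAs against *Tnks* and *Tnks2* together (siTnks/2), again with 3 libraries per group, and the time after transfection is not given in the sources used here. XAV939 and IWR-1 are compared with the same DMSO libraries. The 3 replicates are described as biological, but nothing states that they came from separate animals, so the p-values measure the spread between these libraries, which may be partly technical.

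Library totals lay between 26857070 and 36615194 counts. The chondrocyte identity was checked with 9 markers, whose summed level was 27401 to 36775 CPM (counts divided by library size) in DMSO, 38269 to 56790 with XAV939 and 92496 to 116031 with IWR-1, and 89344 to 119331 in siCtrl and 127026 to 204827 in siTnks/2 libraries, while 6 endothelial markers summed to at most 7.20 CPM in any library. The 5 fibroblast markers, led by collagen I, summed to 12037 to 15078 CPM in DMSO, 6225 to 8119 CPM with XAV939 and 5747 to 8644 CPM with IWR-1. In the siRNA set they overlapped, at 5289 to 9043 CPM in siCtrl and 2781 to 7808 CPM in siTnks/2. With edgeR, 0 of 5 were called after knockdown, against 3 of 5 lower with either inhibitor. Over all genes tested, 18.0% were called after knockdown, 17.4% with XAV939 and 36.4% with IWR-1. The part of these marker levels in the results below was not tested. DMSO replicate 3 stood apart from the other DMSO libraries: 238 of 13873 genes were more than 2-fold above both of them there, against 27 and 75 genes for DMSO replicates 1 and 2.

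The siRNAs are shown because they define the knockdown group. Both are written as the RNA sense strand, 5′ to 3′, of 19 bases.
Tnks siRNA: gucugucguugaguaccuu
Tnks2 siRNA: gugucuacuuguaucacau
The *Tnks* sequence matched exon 14 of 27 within the coding region (mm10, chr8:34855966-34855984, minus strand). The *Tnks2* sequence lay in exon 27 of 27, in the 3′ untranslated region (chr19:36892822-36892840, plus strand). Each full sequence was found in the annotated transcripts of 1 gene, its target, and the closest stretch in any transcript of the 10 substrate genes had 5 to 8 mismatches to either siRNA. These matches are of the sense strand as listed. The antisense strand listed for the *Tnks* siRNA has 1 mismatch to the complement of its sense strand and was not searched. *Tnks* stood at 69.0, 58.4 and 70.1 CPM in siCtrl replicates 1 to 3 and at 19.5, 12.7 and 24.0 CPM in siTnks/2 replicates 1 to 3. *Tnks2* stood at 118, 120 and 115 CPM in siCtrl and at 58.2, 44.9 and 61.2 CPM in siTnks/2. Neither gene's groups overlapped, and both fell, by 1.81 ± 0.22 (SE) on the log2 scale for *Tnks* (edgeR quasi-likelihood test, adjusted p = 0.0057) and by 1.10 ± 0.11 for *Tnks2* (adjusted p = 0.0038).

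In siTnks/2 against siCtrl, *Amotl2* fell and *Sh3bp2* rose. With XAV939, only *Amotl2* passed the test among the 10, and it fell. With IWR-1, *Amotl2* and *Sh3bp2* both fell. The other 7 genes apart from *Amot*, including *Axin1* and *Rnf146*, did not pass an adjusted p of 0.05 in these 3 comparisons under any of the fits run, and *Amot* passed in some fits only.

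As counts, 2 of 10 genes were called after knockdown, where 18.0% of 13672 genes tested were called. That background was 4.40, 6.72 and 4.91% without siCtrl replicate 1, 2 or 3, 5.78% without siTnks/2 replicate 1, and 34.6% with the replicate number as a block. With XAV939, 1 of 10 was called against 17.4% of 13873 genes tested, or 9.45% without DMSO replicate 1 and 33.4% with the block. The 17.4% splits into 1050 genes higher and 1366 lower, or 1338 higher and 1174 lower with upper-quartile normalization. With IWR-1, 2 of 10 were called against 36.4% of all genes. With all libraries and no block, the shares of the 10 genes lay near or below these backgrounds, and since the backgrounds move this far no more is read from them. Their median log2 fold change was -0.07 after knockdown, -0.14 with XAV939 and -0.06 with IWR-1, beside medians over all genes tested of -0.0011, 0.016 and 0.0056. The 3 libraries of each group did not overlap for 6 of 10 genes after knockdown (43.8% of all genes), 2 with XAV939 (33.2%) and 3 with IWR-1 (51.1%).

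**Figure D1:**
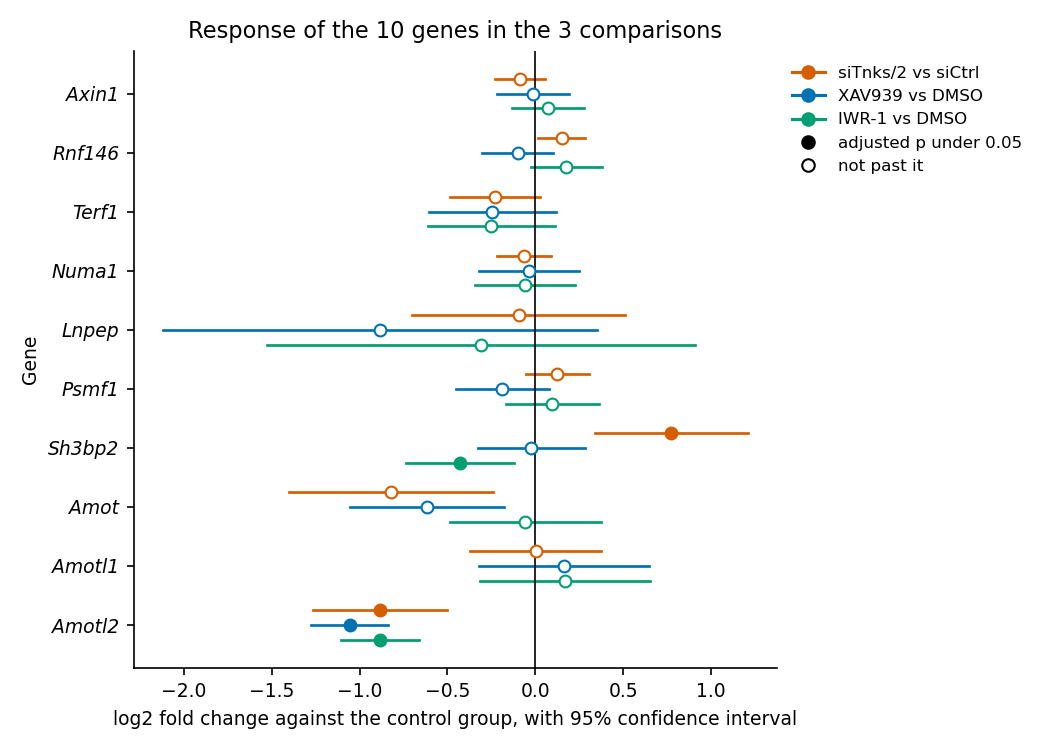
Log2 fold change of each of the 10 genes (x axis) with its 95% confidence interval, for siTnks/2 against siCtrl, XAV939 against DMSO and IWR-1 against DMSO. The fits were without the replicate block. Filled points passed an adjusted p of 0.05. *Amotl2* lies left of 0 in all 3 comparisons, and *Sh3bp2* lies right of 0 after knockdown and left of 0 with IWR-1.

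Transcript levels per length of exonic sequence spanned more than an order of magnitude. In DMSO libraries *Amotl2* was highest at 41.3 ± 3.6 CPM per kb (SD, n = 3). *Numa1* (16.9 CPM per kb), *Amotl1* (15.3) and *Axin1* (13.4) followed, each with a range that overlapped its neighbour's, and then *Rnf146* (9.41), which stood apart. *Psmf1* (5.45) came next, with a range of 4.73 to 5.82 that overlapped that of *Lnpep* (1.03 to 5.10). *Terf1* (2.75), *Lnpep* (2.47) and *Sh3bp2* (2.00) again overlapped in that order, and *Amot* had the lowest mean at 1.51 CPM per kb. *Lnpep* stood at 5.10 CPM per kb in DMSO replicate 3 and at 1.27 and 1.03 in replicates 1 and 2. In siCtrl libraries *Amot* stood at 6.09 CPM per kb, between *Rnf146* (8.69) and *Lnpep* (5.62), and *Terf1* and *Sh3bp2* were last at 1.80 CPM per kb each. The 2 control groups belong to separate count tables and were not tested against each other.

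**Figure D2:**
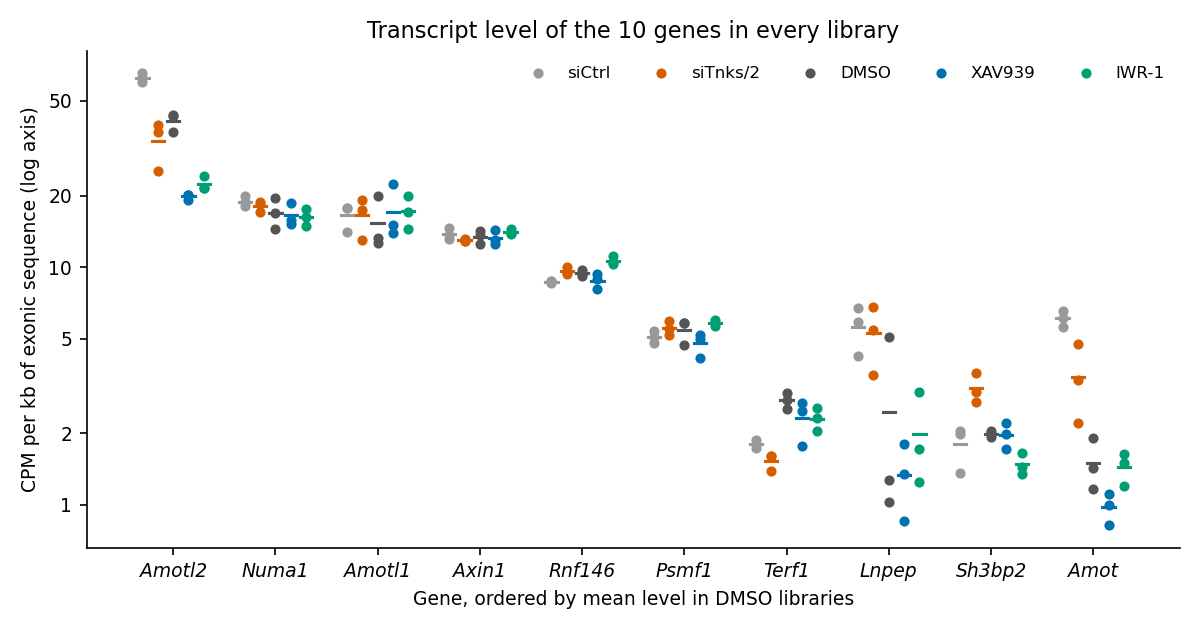
Level of each gene in CPM per kb of exonic sequence (log axis) in every library, with a bar at the mean of each group. *Amotl2* has the highest mean in all 5 groups, although its XAV939 range overlaps that of *Amotl1*.

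The angiomotins (*Amot*, *Amotl1*, *Amotl2*) are scaffold proteins of cell junctions that bind the transcriptional coactivators YAP and TAZ and hold them outside the nucleus, and tankyrase with RNF146 lowers their protein level. *Amotl2* (gene ID 56332, mm10 chr9:102717091-102733418, plus strand), itself a known transcriptional target of YAP, was the one substrate gene that fell in all 3 comparisons. Its level was 379, 411 and 394 CPM in siCtrl replicates 1 to 3 and 232, 159 and 250 CPM in siTnks/2. It was 274, 233 and 271 CPM in DMSO, while XAV939 libraries had 127, 121 and 127 CPM and IWR-1 libraries 136, 135 and 151 CPM. Every treated library lay below every control library of its set. The log2 fold change was -0.88 ± 0.16 (SE) after knockdown (edgeR, adjusted p = 0.015), -1.06 ± 0.10 with XAV939 (adjusted p = 0.00012) and -0.88 ± 0.10 with IWR-1 (adjusted p = 7.0e-05), that is to 0.54, 0.48 and 0.54 of the control. Leaving out siCtrl replicate 1, 2 or 3 ended the call after knockdown at about the same size, with log2 fold changes of -0.91, -0.85 and -0.88 and adjusted p-values of 0.054, 0.055 and 0.055. With either inhibitor it was called in all 16 alternative fits. In bulk RNA, fewer cells that express a gene and less of its RNA per cell cannot be told apart.

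*Amot* (chrX:145446424-145505966, minus strand) had 51.2, 47.0 and 55.2 CPM in siCtrl and 28.2, 18.6 and 39.8 CPM in siTnks/2. In the drug set it had 12.0, 9.81 and 16.1 CPM in DMSO, while XAV939 libraries had 8.43, 6.91 and 9.32 CPM and IWR-1 libraries 12.6, 10.1 and 13.7 CPM. The siTnks/2 and XAV939 libraries lay below all their controls, whereas the IWR-1 libraries overlapped DMSO. The log2 fold changes were -0.82 ± 0.25 after knockdown (edgeR, adjusted p = 0.059), -0.61 ± 0.20 with XAV939 (adjusted p = 0.055) and -0.06 ± 0.20 with IWR-1 (adjusted p = 0.85). With the replicate number as a block, the first 2 were called, at -0.87 (adjusted p = 0.013) and -0.60 (adjusted p = 0.0016). Over all alternatives the adjusted p ranged from 0.0056 to 0.16 after knockdown and from 0.0016 to 0.16 with XAV939.

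*Amotl1* had 178, 141 and 179 CPM in siCtrl and 174, 131 and 194 CPM in siTnks/2. It had 133, 128 and 201 CPM in DMSO, while XAV939 libraries had 140, 225 and 152 CPM and IWR-1 libraries 145, 172 and 201 CPM. The groups overlapped in each comparison. Its log2 fold changes were 0.00, 0.16 and 0.17, and their 95% confidence intervals were -0.37 to 0.38 after knockdown, -0.32 to 0.65 with XAV939 and -0.31 to 0.65 with IWR-1. As a share of the 3 angiomotin transcripts per length, *Amotl2* made up 66.3 to 74.9% in DMSO, 45.2 to 57.5% with XAV939 and 52.7 to 57.5% with IWR-1. The same share was 71.7 to 76.9% in siCtrl and 62.3 to 64.1% in siTnks/2.

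**Figure D3:**
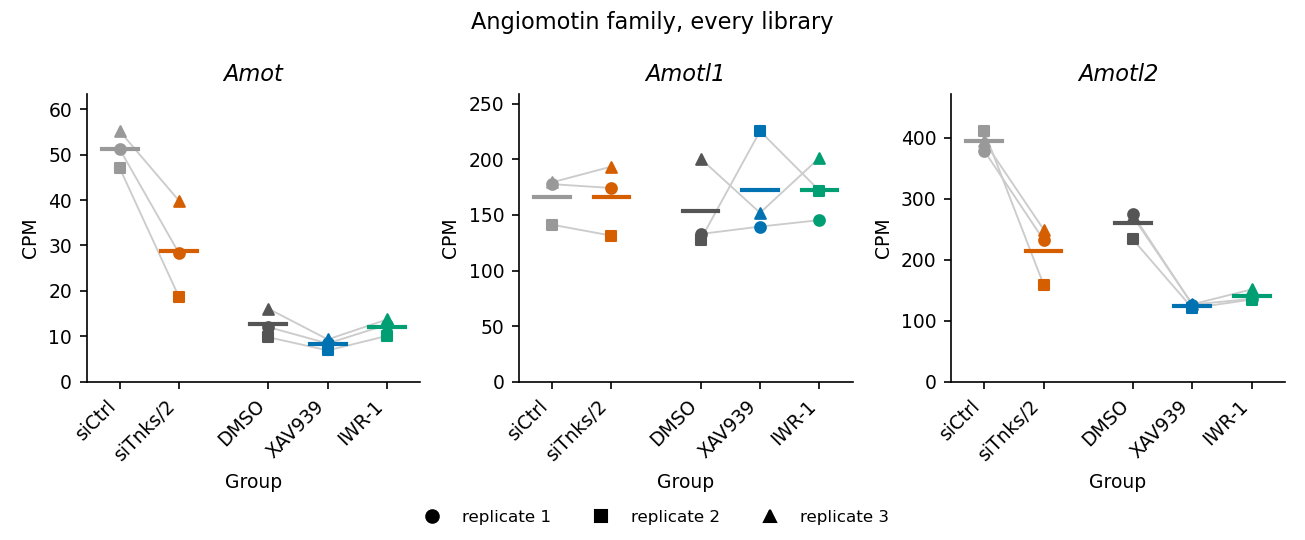
CPM of *Amot*, *Amotl1* and *Amotl2* in every library by group. Marker shape gives the replicate number, grey lines join libraries of the same number within a set, and bars are group means. *Amotl2* lies below the control of the same number in every treated library, *Amot* does so in every siTnks/2 and XAV939 library, and *Amotl1* moves both ways.

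The lists of related genes used from here on include the substrate genes themselves. Their counts of called genes stand beside shares over all genes tested of 18.0% after knockdown, 17.4% with XAV939 and 36.4% with IWR-1. The 16 angiomotin and Hippo pathway genes gave 1 called higher and 2 lower after knockdown, 1 higher and 5 lower with XAV939, and 1 higher and 3 lower with IWR-1. *Patj*, a polarity scaffold that binds angiomotins, rose with XAV939 (log2 fold change 0.46, adjusted p = 0.020) and IWR-1 (1.16, adjusted p = 3.1e-05). *Lats1*, a kinase that phosphorylates YAP, rose after knockdown (0.27, adjusted p = 0.028). Of 8 YAP and TAZ targets, a list that holds *Amotl2*, 5 were called lower after knockdown, 7 with XAV939 and 4 with IWR-1, and 0 were called higher in the 3 comparisons. The list's median log2 fold change was -0.79, -0.87 and -0.63 in that order, *Amotl2* included. Without *Amotl2*, 4, 6 and 3 of 7 were called lower. *Ccn1*, a secreted matricellular protein, changed by -1.37 after knockdown (adjusted p = 0.0090) and by -1.82 with XAV939 (adjusted p = 3.5e-05). *Axl*, a receptor tyrosine kinase, changed by -1.54 with IWR-1 (adjusted p = 5.3e-06). *Crim1*, named after its values were seen, was the target on the list not called in any of the 3, at 0.11, -0.01 and 0.54 (adjusted p = 0.38, 0.98 and 0.051). These lists were written with earlier results of these data known, so they are not independent evidence of a direction.

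**Figure D4:**
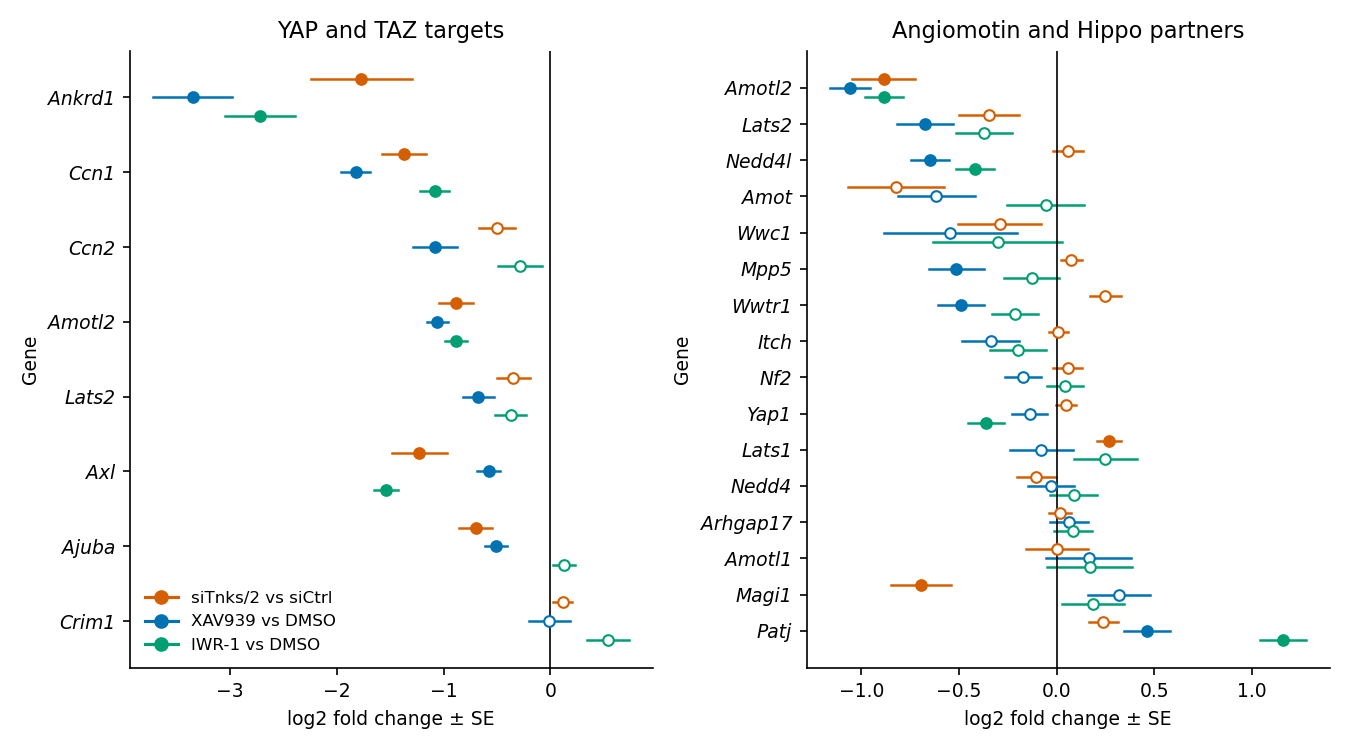
Log2 fold change ± SE of 8 YAP and TAZ targets and of 16 angiomotin and Hippo partner genes in the 3 comparisons. Filled points passed an adjusted p of 0.05. Most targets lie left of 0, whereas the partner genes lie on both sides.

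Promoter windows of the angiomotins are shown because *Amotl2* was called in all 3 comparisons while *Amotl1* was not called in any. They are RefSeq windows (GRCm38.p6) from 250 bases before to 50 bases after an annotated transcription start, on the strand of the gene. These windows lie inside the annotated gene spans, chr9:102717091-102733418 for *Amotl2*, chrX:145446424-145505966 for *Amot* and chr9:14541966-14662974 for *Amotl1*. The upstream ends of those spans were not scanned for motifs. Capitals mark the TEAD motif GGAATG (the factor through which YAP binds DNA, read as CATTCC on the other strand) and the TCF/LEF motif CTTTGA (the factor that binds β-catenin, TCAAAG on the other strand). The motifs do not overlap in these windows.
Amotl2, chr9:102717554-102717853, plus strand: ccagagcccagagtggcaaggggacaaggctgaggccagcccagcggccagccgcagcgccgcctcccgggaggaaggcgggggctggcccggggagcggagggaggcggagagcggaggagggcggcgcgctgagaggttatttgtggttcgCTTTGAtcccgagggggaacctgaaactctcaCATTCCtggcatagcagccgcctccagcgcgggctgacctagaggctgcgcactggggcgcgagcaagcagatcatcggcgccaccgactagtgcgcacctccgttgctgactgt
Amot, chrX:145487590-145487889, minus strand: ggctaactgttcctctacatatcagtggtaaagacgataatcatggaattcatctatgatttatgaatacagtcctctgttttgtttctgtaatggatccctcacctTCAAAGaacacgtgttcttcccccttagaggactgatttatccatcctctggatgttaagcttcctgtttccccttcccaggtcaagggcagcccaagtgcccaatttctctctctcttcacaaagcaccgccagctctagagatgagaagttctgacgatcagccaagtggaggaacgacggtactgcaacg
Amotl1, chr9:14614951-14615250, minus strand: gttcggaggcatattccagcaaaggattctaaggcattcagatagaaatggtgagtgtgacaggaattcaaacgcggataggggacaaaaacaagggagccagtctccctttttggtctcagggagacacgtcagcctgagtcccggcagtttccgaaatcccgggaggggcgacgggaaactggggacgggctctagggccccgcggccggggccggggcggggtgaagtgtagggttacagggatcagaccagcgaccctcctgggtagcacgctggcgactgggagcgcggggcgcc
In the *Amotl2* window, CTTTGA starts 97 bases and CATTCC 65 bases before the annotated start of that window. The *Amot* window holds TCAAAG, 143 bases before the start, and no TEAD match, and the *Amotl1* window holds neither motif. Windows were found for 8 of the 10 genes. *Amotl2* and *Numa1* held the TEAD motif, *Amotl2*, *Amot* and *Psmf1* the TCF/LEF motif, and *Amotl2* alone held both. Among all 32851 windows, 14.7% held the TEAD motif, 16.0% the TCF/LEF motif and 2.62% both. A match of 6 letters is a description of the sequence and not a binding site.

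SH3BP2 is an adaptor of SYK, PLCγ and VAV signalling in osteoclasts and leukocytes, and mutations that free it from tankyrase cause cherubism. *Sh3bp2* (gene ID 24055, chr5:34525784-34563639, plus strand) was low in these cells, with 159 to 434 counts per library. It had 8.52, 5.88 and 8.82 CPM in siCtrl and 12.8, 15.5 and 11.7 CPM in siTnks/2. It had 8.60, 8.32 and 8.80 CPM in DMSO, while XAV939 libraries had 7.36, 9.50 and 8.52 CPM and IWR-1 libraries 5.78, 7.09 and 6.20 CPM. The siTnks/2 libraries lay above all siCtrl libraries, the IWR-1 libraries lay below all DMSO libraries, and the XAV939 libraries lay on both sides of DMSO. The log2 fold change was 0.77 ± 0.18 after knockdown (edgeR, adjusted p = 0.031), -0.02 ± 0.14 with XAV939 (adjusted p = 0.93) and -0.43 ± 0.14 with IWR-1 (adjusted p = 0.032). The call after knockdown was lost without siCtrl replicate 1, 2 or 3 (0.85, 0.62 and 0.88) or siTnks/2 replicate 1 (0.80), with adjusted p-values from 0.067 to 0.083. The IWR-1 call was lost without DMSO replicate 1, 2 or 3 or IWR-1 replicate 1 or 3, at -0.45 to -0.37 and adjusted p-values of 0.056 to 0.12.

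The 8 leukocyte markers summed to 13.6 to 16.1 CPM in siCtrl and 34.3 to 57.1 CPM in siTnks/2, and to 10.4 to 14.3 CPM in DMSO, 15.3 to 21.1 CPM under XAV939 and 14.9 to 18.1 CPM under IWR-1. Most of the sum in the siRNA set was *Laptm5*, a lysosomal membrane protein, with 10.2 to 13.2 CPM in siCtrl and 30.7 to 53.8 CPM in siTnks/2. In the drug set single markers moved apart: with IWR-1 *Laptm5* rose (log2 fold change 2.67, adjusted p = 7.8e-06) and *Cd68* fell (-1.02, adjusted p = 0.00088), and with XAV939 *Cd74* rose (2.14, adjusted p = 0.0030). The part of these markers in the *Sh3bp2* result was not tested. Of these markers *Ptprc* (CD45) reached at most 0.16 CPM and *Tyrobp* at most 0.093 CPM in any of the 15 libraries. *Tyrobp* and *Adgre1* were at 0 in all 3 siTnks/2 libraries. Others stood higher. *Cd68* had 2.33 to 2.86 CPM in siCtrl, 2.39 to 2.57 CPM in siTnks/2 and 7.32 to 10.2 CPM in DMSO. *Csf1r* had 0.94 to 1.19 CPM in DMSO. *Cd74* had 0.16 to 0.33 CPM in siCtrl and 0.45 to 0.50 CPM in siTnks/2, and reached 9.16 CPM with XAV939. Of 10 tested genes of the SH3BP2 signalling list, 3 were called higher and 0 lower after knockdown, 0 and 2 with XAV939, and 1 and 4 with IWR-1. The shares called over all genes tested were 18.0, 17.4 and 36.4% in that order. *Vav3* had the smallest adjusted p in each comparison. It rose after knockdown (1.35 ± 0.29, adjusted p = 0.024) and fell with XAV939 (-0.56 ± 0.12, adjusted p = 0.0086) and IWR-1 (-0.84 ± 0.12, adjusted p = 0.00031). *Fyn*, a Src family kinase, rose with IWR-1 (0.41, adjusted p = 0.0096).

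AXIN1 is the limiting scaffold of the complex that marks β-catenin for destruction, and RNF146 is the ligase that removes AXIN after PARylation. *Axin1* stayed between 47.7 and 55.9 CPM over all 15 libraries, with siTnks/2 just below siCtrl and overlapping groups for both inhibitors. Its log2 fold changes were -0.09 after knockdown, -0.01 with XAV939 and 0.07 with IWR-1, with 95% confidence intervals of -0.23 to 0.05, -0.22 to 0.19 and -0.13 to 0.28. *Axin2*, the paralogue that β-catenin itself induces, had a log2 fold change of -0.23 after knockdown (edgeR, adjusted p = 0.59). It fell with both inhibitors, with -1.40 ± 0.25 for XAV939 (adjusted p = 0.0029) and -2.18 ± 0.26 for IWR-1 (adjusted p = 7.7e-05). A call in 1 set and not in the other does not show that the effects differ. That difference is not given here for *Axin2*. Of 13 destruction complex genes, 2 were called higher and 1 lower after knockdown, 0 and 3 with XAV939, and 0 and 4 with IWR-1. Over all genes tested, 18.0, 17.4 and 36.4% were called in that order. *Ctnnb1*, encoding β-catenin, rose by 0.24 after knockdown (adjusted p = 0.048) and *Apc2* fell there (-0.88, adjusted p = 0.0095).

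*Rnf146* had 38.1, 39.1 and 38.9 CPM in siCtrl and 42.6, 44.8 and 41.5 CPM in siTnks/2. It had 41.5, 43.4 and 40.8 CPM in DMSO, while XAV939 libraries had 41.5, 36.2 and 39.7 CPM and IWR-1 libraries 49.6, 45.7 and 46.9 CPM. The siTnks/2 and IWR-1 libraries lay above all their controls, but neither difference passed the test (log2 fold changes 0.15 and 0.18, edgeR adjusted p = 0.11 and 0.16). Exons of *Rnf146* overlap those of *Echdc1* on the other strand, and because the strand setting of the counting is not given, reads of the 2 genes may have been shared or dropped. Of 6 genes of WWE-domain ligases, the smallest adjusted p was that of *Dtx1*, a Notch pathway ligase, with -1.53 for XAV939 (adjusted p = 0.020) and -1.04 for IWR-1 (adjusted p = 0.046), and 0 of 6 were called after knockdown.

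TRF1, encoded by *Terf1*, is the telomere protein on which tankyrase was discovered, although the mouse protein lacks the binding motif of the human one. NuMA, encoded by *Numa1*, anchors microtubules at spindle poles and is PARylated there. *Terf1* had 7.96 to 8.66 CPM in siCtrl and 6.42 to 7.43 CPM in siTnks/2, which did not overlap, with a log2 fold change of -0.23 (edgeR, adjusted p = 0.18). It was also -0.25 with both XAV939 and IWR-1 (adjusted p = 0.33 and 0.26), where the groups overlapped. *Numa1* stayed between 114 and 157 CPM in the 15 libraries, with log2 fold changes of -0.06, -0.03 and -0.06. Its exons overlap *Il18bp* on the other strand. Of 7 genes of shelterin, the complex that caps telomeres, *Terf2ip* was called higher after knockdown (0.39, adjusted p = 0.047) and 0 were called with either inhibitor. Among 9 NuMA and spindle pole genes, the mitotic kinase gene *Aurka* fell with XAV939 (-0.88, adjusted p = 0.0028) and IWR-1 (-1.07, adjusted p = 0.00026), and *Gpsm1* rose after knockdown (0.56, adjusted p = 0.045).

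IRAP, encoded by *Lnpep*, is an aminopeptidase of GLUT4 storage vesicles that carries tankyrase to them. *Lnpep* had 83.5, 60.1 and 94.9 CPM in siCtrl and 77.2, 49.9 and 96.2 CPM in siTnks/2. In the drug set it had 18.0, 14.5 and 72.2 CPM in DMSO, while XAV939 libraries had 12.1, 19.1 and 25.6 CPM and IWR-1 libraries 17.7, 24.3 and 42.3 CPM. DMSO replicate 3 exceeded the other 8 drug libraries, and replicate 3 was also the highest within each inhibitor group. The log2 fold change was -0.09 ± 0.26 after knockdown (adjusted p = 0.82), -0.88 ± 0.56 with XAV939 (edgeR, adjusted p = 0.30) and -0.31 ± 0.55 with IWR-1 (adjusted p = 0.70). Without DMSO replicate 3 the last 2 became 0.20 and 0.78 and were not called either, so the data give no direction for *Lnpep* with the inhibitors. Of 10 genes of IRAP and GLUT4 vesicles, 3 were called higher and 0 lower after knockdown, 0 with XAV939, and 2 each way with IWR-1. *Sort1*, the sorting receptor sortilin and one of the study's cartilage-signature genes, rose after knockdown (1.06 ± 0.09, edgeR adjusted p = 0.0030). With IWR-1, *Tbc1d1* rose (0.45, adjusted p = 0.012) and *Vamp2* fell (-0.47, adjusted p = 0.011).

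PI31, encoded by *Psmf1*, regulates proteasome assembly and transport and is PARylated by tankyrase. *Psmf1* had 30.8, 34.6 and 32.7 CPM in siCtrl and 35.4, 38.3 and 33.4 CPM in siTnks/2. It had 37.5, 37.4 and 30.5 CPM in DMSO, while XAV939 libraries had 33.5, 32.2 and 26.7 CPM and IWR-1 libraries 38.7, 37.5 and 36.4 CPM. The groups overlapped in all 3 comparisons with the controls, and the log2 fold changes were 0.13, -0.19 and 0.10, none of them called (adjusted p = 0.28, 0.31 and 0.57). *Fbxo7*, the partner with which PI31 forms a dimer, was called higher in all 3 comparisons. Its log2 fold change was 0.56 ± 0.08 after knockdown (edgeR, adjusted p = 0.0092), 0.65 ± 0.15 with XAV939 (adjusted p = 0.016) and 1.27 ± 0.15 with IWR-1 (adjusted p = 0.00011). The study also lists *Fbxo7* among targets of SOX9, a chondrocyte transcription factor. Among 11 proteasome regulators and assembly factors, the called genes numbered 2 higher and 1 lower after knockdown, 1 and 0 with XAV939, and 3 and 1 with IWR-1. *Psme2* and *Psme1*, which encode the PA28 activator of the immunoproteasome, were the called lower genes after knockdown (-0.39, adjusted p = 0.022) and with IWR-1 (-0.71, adjusted p = 0.0076).

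**Figure D5:**
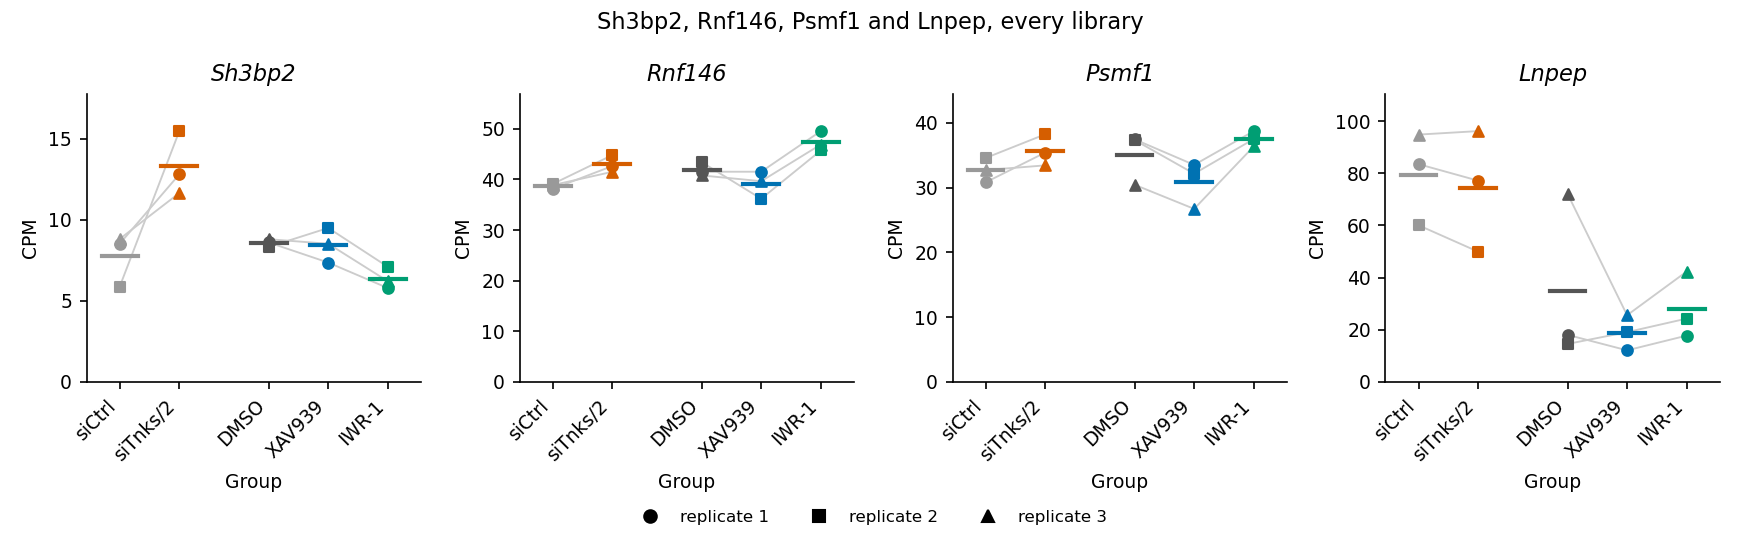
CPM of *Sh3bp2*, *Rnf146*, *Psmf1* and *Lnpep* in every library by group, with replicate numbers as marker shapes, lines between libraries of the same number within a set, and bars at group means. *Sh3bp2* is higher in siTnks/2 and lower with IWR-1 than in the controls, and 1 DMSO library of *Lnpep* stands far above the others. For *Sh3bp2*, *Rnf146* and *Psmf1* the IWR-1 and XAV939 libraries do not overlap, as for 37.6% of all genes tested. None of these differences was called in the main fit.

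A further list of 17 other tankyrase substrates and partners gave 1 called higher and 1 lower after knockdown. It gave 0 and 2 with XAV939, and 2 and 6 with IWR-1. In the same order, 18.0, 17.4 and 36.4% of all genes tested were called. *Axin2* was the strongest with either inhibitor, with the values given above. After knockdown *Strn*, a phosphatase scaffold, changed by 0.23 (adjusted p = 0.049) and *Babam1*, a subunit of the BRISC and BRCA1-A deubiquitinase complexes, by -0.27 (adjusted p = 0.028). *Blzf1*, a Golgi protein, rose with IWR-1 (0.47, adjusted p = 0.0086).

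Whether the 2 inhibitors differed was tested directly at the same dose and time. With edgeR, 0 of 10 genes were called between IWR-1 and XAV939, where 17.6% of genes tested were called. The edgeR background was 10.1% without IWR-1 replicate 1 and 9.57% without IWR-1 replicate 2. DESeq2 called 2 of 10, where it called 18.9% of all genes. Of the 10 genes, 4 had an unadjusted edgeR p under 0.05, a share that was not counted over all genes. The libraries of the 2 inhibitors did not overlap for 5 of 10 genes (*Amot*, *Amotl2*, *Psmf1* and *Rnf146* higher with IWR-1, *Sh3bp2* lower), against 37.6% of all genes. With the replicate number as a block, 4 genes were called, where the same fit called 30.7% of all genes: *Amot* was higher with IWR-1 than with XAV939 by 0.56 (adjusted p = 0.0025), *Psmf1* by 0.29 (adjusted p = 0.028) and *Rnf146* by 0.28 (adjusted p = 0.031), and *Sh3bp2* was lower (-0.40, adjusted p = 0.026). Without the block their adjusted p-values were 0.077, 0.13, 0.062 and 0.069 in that order, and over all alternatives they ranged from 0.0025 to 0.21, 0.028 to 0.30, 0.026 to 0.18 and 0.026 to 0.23. For *Amotl2* the difference was 0.17 with a 95% confidence interval of -0.05 to 0.39, and it was not called in any of the 15 alternative fits.

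The inhibitor effects were then compared with the knockdown effect in 1 fit over all 15 libraries. *Sh3bp2* was the 1 gene of 10 called in each comparison, with backgrounds of 13.5% for XAV939 and 24.4% for IWR-1. The XAV939 background comprised 770 genes higher and 1152 lower, or 1011 and 907 with upper-quartile normalization. It was 8.60% without siCtrl replicate 1, 8.73% without siCtrl replicate 3 and 8.44% with no filter on low counts. The change of *Sh3bp2* with XAV939 was below that after knockdown (log2 difference -0.81 ± 0.23, edgeR adjusted p = 0.033), and the change with IWR-1 was further below it (log2 difference -1.21 ± 0.23, adjusted p = 0.0017). The IWR-1 difference was called in all 21 alternative fits. The XAV939 difference was lost in 6 of 21, namely without siTnks/2 replicate 1 or 2, siCtrl replicate 2, DMSO replicate 1 or 3, or XAV939 replicate 1, at -0.83 to -0.65. With the block, which called 28.2% and 36.3% of all genes, 1 more gene was called in each comparison, *Psmf1* for XAV939 (-0.33, adjusted p = 0.043, against 0.15 without the block) and *Amot* for IWR-1 (0.82, adjusted p = 0.0042, against 0.11). For *Amotl2* the differences from knockdown were -0.19 (95% confidence interval -0.59 to 0.21) and -0.01 (-0.41 to 0.39).

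Over the 9 drug libraries, the genes whose log2 CPM was most like that of *Amotl2* were *Me2* (Pearson r = 0.991) and *Polr3g* (r = 0.987), and those most like *Sh3bp2* were *Sema4c* (r = 0.961) and *C1s2* (r = 0.956). These are the highest values among the genes tested, over libraries that share the 3 treatments, and are given as a description.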

How the data were processed

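RNA sequencing (TruSeq Stranded mRNA) was done on 15 libraries of mouse articular chondrocytes. The authors deposited 2 tables of raw counts per gene, 1 for the siRNA set and 1 for the drug set, made per the labels with Trimmomatic 0.32, TopHat2 2.0.13 and HTSeq 0.6.1p1 on mm10. The strand setting is not given in the sources used here. Library totals were 26857070 to 31254278 counts in the siRNA set and 27438611 to 36615194 in the drug set. Of 24134 gene IDs, 24051 matched a symbol.

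Genes were filtered with edgeR's filterByExpr at its default settings, normalized by TMM and tested with the quasi-likelihood test of edgeR 4.0.16 (R 4.3.3) with Benjamini-Hochberg adjustment over all genes tested, at 0.05. Each table was fitted alone, and differences between inhibitor and knockdown effects came from 1 fit over both. CPM values use TMM-scaled library sizes of the tested genes, and fitted log2 fold changes a prior count of 2. The alternatives were RLE and upper-quartile scaling, no filter, a minimum of 10 counts in every library, DESeq2 1.42.0, a fit of only the compared drug groups, leaving out each library, and the replicate number as a block.

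Same-numbered libraries deviated together (Pearson r over genes 0.487 to 0.554 in 3 siRNA pairs and 0.153 to 0.680 in 9 drug pairs), against up to 0.137 and 0.477 between different numbers. Every same-number pair was over 0.1, so the numbers were taken to pair the libraries, on the data alone. The main fits used group only and ignored this pairing, which entered only the fits with the replicate number as a block. DMSO replicate 2 correlated more with IWR-1 replicate 1 (0.477) and XAV939 replicate 1 (0.422) than with its own number (0.322 and 0.153). On simulated counts, the siRNA fit recovered 90% of genes changed 2-fold, the drug fit 89% and the joint fit 33%. The simulation gave every gene the same spread and no effect of replicate, and changed only genes above a minimum mean count. These shares are therefore a check of the fits and not the power for the genes described here.

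Named from each list were the genes with the smallest adjusted p in each direction among those called, beside the 10 genes, *Tnks* and *Tnks2*. The 10 genes and the lists were chosen with earlier results of these data known. Promoter windows came from RefSeq (GRCm38.p6) and siRNA sequences from the study's supplementary list.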

Additional observations from a re-analysis of the deposited data

Results flagged for a closer look

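In the main fits, *Sh3bp2* responded differently to the inhibitors and to the knockdown when the difference itself was tested. The XAV939 difference was called in 15 of 21 alternative fits and the IWR-1 difference in all 21. Over all genes tested, 13.5% were called for XAV939 and 24.4% for IWR-1. Among the fits that left out 1 library, *Sh3bp2* kept its knockdown call in 2 of 6. Its log2 fold change with XAV939 minus that after knockdown was -0.81 ± 0.23 (SE; edgeR, adjusted p = 0.033), and for IWR-1 the difference was -1.21 ± 0.23 (adjusted p = 0.0017). The siRNA and drug sets were handled as separate tables with their own controls, so a difference between sets and a difference between the ways of removing tankyrase activity cannot be told apart.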

How the results depend on the processing

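Of 1010 alternative values for the 10 genes, 896 kept direction and call, 20 became called, 18 lost the call and 76 changed sign, 0 of the last called in either fit. The sign changes listed below come from a subset of 662 values, of which 32 changed sign. That subset holds every comparison with a control. Between treatments it holds only genes called against a control or in that comparison in some fit. *Lnpep* fell outside it there, at -1.18 to 0.30 for XAV939 minus knockdown and -0.65 to 0.88 for IWR-1 minus knockdown. The number of the 10 genes called was 0 to 3 after knockdown when 1 library was left out. The fits that called 0 or 1 of them called 4.40 to 6.72% of all genes tested. Without siTnks/2 replicate 2 or 3, where 3 were called, the share was 20.8 or 16.1%. With XAV939 the number was 2 without the filter, 2 by DESeq2, 2 with the replicate block and 1 to 2 with 1 library left out. The shares called over all genes were 12.6, 19.5, 33.4 and 9.45 to 17.7% in that order. The number was 1 to 2 with IWR-1 on leaving out libraries, where 26.9 to 40.3% of all genes were called. Between IWR-1 and XAV939 the number was 2 by DESeq2, 4 with the block and 0 to 2 on leaving out libraries. Those fits called 18.9, 30.7 and 9.57 to 21.7% of all genes. For the XAV939 effect minus the knockdown effect the number was 2 with the block and 0 to 1 on leaving out libraries. For IWR-1 it was 2 with the block and 1 to 2 on leaving out libraries. With the block these 2 comparisons called 28.2 and 36.3% of all genes. The count did not always go with the share: without siCtrl replicate 1, XAV939 minus knockdown had 1 called at 8.60%. Beyond the calls of *Amot*, *Psmf1*, *Rnf146* and *Sh3bp2* given above, pairing by block changed no call of the 10 genes. The sign changes were in values that were not called, and for *Lnpep* with either inhibitor they were large. *Amotl1* after knockdown was -0.0057 with upper-quartile scaling, -0.0011 by DESeq2 and -0.0068 with the block. With upper-quartile scaling XAV939 gave 0.037 for *Axin1*, 0.028 for *Sh3bp2* and 0.018 for *Numa1*, and *Amotl2* for IWR-1 minus knockdown was 0.031, or 0.016 with the block. Leaving out 1 library gave -0.21 to 0.15 for *Amot* with IWR-1, -0.040 to 0.49 for *Amot* in XAV939 minus knockdown, -0.19 to 0.12 for *Amotl2* in IWR-1 minus knockdown, -0.12 to 0.15 and -0.077 to 0.39 for *Amotl1* after knockdown and with XAV939, -0.068 to 0.026 for *Axin1* with XAV939, -0.14 to 0.066 and -0.17 to 0.045 for *Numa1* with XAV939 and IWR-1, -0.0015 to 0.15 for *Psmf1* with IWR-1, -0.11 to 0.071 for *Sh3bp2* with XAV939, and for *Lnpep* -0.32 to 0.12 after knockdown, -1.25 to 0.20 with XAV939 and -0.75 to 0.78 with IWR-1. The cause was not tested.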
